A study of Mus musculus with 4 samples.

Results

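The genes described here are 10 mouse genes whose enzymes make NADPH or carry the pentose phosphate pathway: G6pdx, Pgls, Pgd, Rpia, Tkt, Taldo1, Idh1, Idh2, Me1 and Nnt. They were chosen by name for their enzymes' roles, with earlier results of these data known, out of 21900 protein-coding gene models. Binding was read from peaks of an ATF4 pull-down in heart ventricle of mice aged 4 weeks. ATF4 is a bZIP transcription factor whose synthesis goes up under amino acid, mitochondrial and other stresses. Chromatin was crosslinked, sheared and captured on streptavidin beads (BioChIP), and the study comprises 2 pull-down samples and 2 input samples of sheared chromatin that was not pulled down. The labels give no strain, genotype or sex, and the antibody field of the pull-down samples reads only AAV, so whether the captured ATF4 was the heart's own cannot be told from them. They do not say whether the 2 pull-down samples came from separate animals, and an SD below measures only the spread between these samples. Input values are not analysed here.

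There were 41639 peaks in the list for the whole series, and the replicate lists were longer, with 78746 for replicate 1 and 88812 for replicate 2. Series-wide values below are the authors' deposited fold enrichment of a peak, which steps as a fold over a constant background and is not a ratio to input. The replicate lists hold no fold, and replicate folds were worked out from their values through peaks that both kinds of list share. At series-wide peaks found in both replicates, the deposited fold was the higher of the replicate folds at all but 1 of 40643. The lists hold no read counts, so the depth is unknown and no counting error is given. Both replicate lists hold no peak on the distal end of several chromosomes, and Nnt lies in such a stretch. The marker genes of heart muscle cells listed for this report all had a series-wide peak at a gene end (7 of 7), against 0 of 3 for neurons, 1 of 4 for endothelium, 1 of 3 for fibroblasts and 1 of 2 for immune cells. The counts lay closer for gene-end peaks present in both replicate lists, with 7 of 7 for heart muscle cells, 1 of 3 for neurons, 3 of 4 for endothelium, 2 of 3 for fibroblasts and 1 of 2 for immune cells. The tissue was bulk ventricle, and in which cells the chromatin was bound cannot be told from it.

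NADPH carries the electrons that keep glutathione and thioredoxin reduced and that feed the synthesis of lipids and proline. In the cytosol it comes from the oxidative branch of the pentose phosphate pathway (G6pdx, Pgd), from the isocitrate dehydrogenase Idh1 and from malic enzyme (Me1), and in mitochondria from Idh2 and the transhydrogenase Nnt. The non-oxidative branch (Rpia, Tkt, Taldo1) makes no NADPH itself but returns pentose phosphates to glycolysis.

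A series-wide peak lay within 1 kb of an end of the gene model for 8 of the 10 genes, and for 34.9% of all protein-coding genes. Taldo1 and Me1 were the pair without. Within 10 kb of the model all 10 carried series-wide peaks, against 61.1% of all genes, and there were 32 such peaks in all. In each replicate list 9 of the 10 had a gene-end peak, against 48.2% of all genes in replicate 1 and 50.2% in replicate 2, and the same 9 had a peak within 10 kb, against 72.3% and 74.1%. Of the 32 series-wide peaks, 9 lay at gene ends, 18 inside the models away from the ends and 5 outside. Where the strand is known, all 7 series-wide gene-end peaks lay at the start of the gene model and 0 at its far end, although for Idh2 the listed start lies inside the model, away from that peak. This place was usual. Over all genes with a known strand, 5748 of 17492 had a series-wide peak at the start. At either end the counts were 3733 of 6803 genes with at least 20 CpG dinucleotides at a start and 2486 of the other 10689. The strongest gene-end peak had a median fold of 13.2 over the 8 genes, with a range of 9.75 to 23.5. The median over the 7644 genes of the whole table with such a peak was 13.3. The members' share was above that of all genes and their median height close to it. Among the 50% of series-wide peaks with most enrichment, 4 members kept a gene-end peak (Pgd, Rpia, Idh2 and Tkt), against 16.7% of all genes. Promoter base composition moved with the share. Of the 9 members with a promoter in the RefSeq table, 8 had at least 20 CpG dinucleotides at a start, and among all genes with such a start 54.9% had a series-wide gene-end peak, against 23.3% of genes below that. These are not the same 8 genes as those with a gene-end peak. They include Taldo1 and Me1, which had none in the series-wide list, and leave out Nnt and G6pdx, which had 18 CpG. The part of CpG content in the members' count was not tested.

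**Figure D1:**
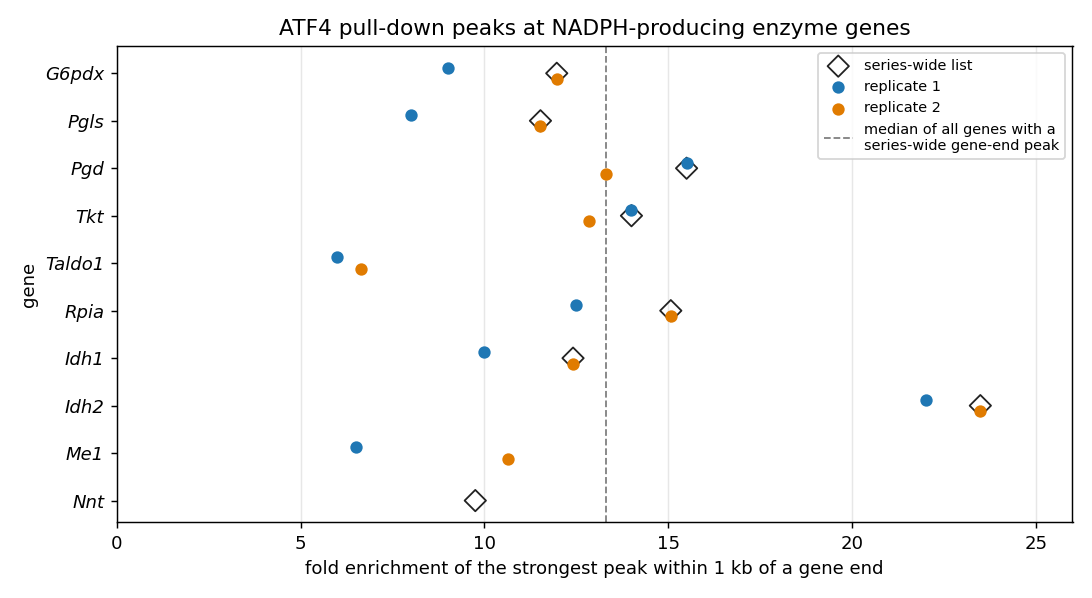
Fold enrichment (x axis) of the strongest peak within 1 kb of a gene end for each gene (y axis), with diamonds for the series-wide list and dots for the pull-down replicates. Idh2 stands highest with 22.0 and 23.5 in the replicates, Taldo1 and Me1 have dots but no diamond, and Nnt has a diamond of 9.75 but no dots.

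G6pdx (gene 14381, chromosome X, 74409483 to 74428880, mm10, minus strand) encodes glucose-6-phosphate dehydrogenase, which makes the first NADPH of the pentose phosphate pathway. Its gene-end peak (74429434 to 74429951) had a fold of 9.0 in replicate 1 and 12 in replicate 2. The summit lay 768 bp upstream of the G6pdx start but 33 bp from a listed start of Ikbkg, a gene of NF-kappa-B signalling that runs the other way and overlaps G6pdx; it is named here after its position was seen. The G6pdx start itself was covered only by a weaker peak of replicate 2 (5.76-fold, summit 63 bp upstream), which had no counterpart in replicate 1 or in the series-wide list. The single series-wide peak within 10 kb of G6pdx therefore cannot be assigned to this gene rather than to Ikbkg.

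Pgls (gene 66171, chromosome 8, 71592184 to 71596267, plus strand) encodes the lactonase of the second step. A series-wide peak from 71591578 to 71592731 covered its start, with a fold of 8.0 in replicate 1 and 11.5 in replicate 2 (9.76 ± 2.49, SD, n = 2). Replicate summits were 349 bp apart, the widest gap among the 27 peaks found in both replicates, so the point of highest signal is not well placed. Weaker peaks at the far end of the gene, 6.0-fold in replicate 1 and 7.54-fold in replicate 2, overlapped each other but no series-wide peak. They lay within 1 kb of an end of Niban3.

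Pgd (gene 110208, chromosome 4, 149149991 to 149166705, minus strand) encodes 6-phosphogluconate dehydrogenase, the other NADPH-making enzyme of the pathway. Its gene-end peak (149166634 to 149167122) had 15.5-fold in replicate 1 and 13.3-fold in replicate 2 (14.4 ± 1.56, SD, n = 2). The summits lay 90 and 113 bp upstream of the start. No other series-wide peak lay within 10 kb, although replicate 2 alone held a 9.75-fold peak 5274 bp upstream. Both replicates held weaker, overlapping peaks at a pair of other places. About 6 kb upstream they had 5.50-fold in replicate 1 and 6.65-fold in replicate 2. Beyond the far end, at 5344 and 5377 bp, they had 5.50-fold and 6.21-fold.

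Rpia (gene 19895, chromosome 6, 70765720 to 70792175, minus strand) encodes ribose-5-phosphate isomerase, which supplies ribose for nucleotides. Its only series-wide peak within 10 kb (70791663 to 70792454) stood at the start with 12.5-fold in replicate 1 and 15.1-fold in replicate 2 (13.8 ± 1.82, SD, n = 2). The summits lay 67 and 101 bp upstream of the start. The promoters of Pgd and Rpia held the summits of both replicates, and in the RefSeq sequences (GRCm38.p6, the assembly of mm10) below the capitals mark the bases from the summit of 1 replicate to that of the other.
Pgd start, chr4:149166656-149166955, minus strand: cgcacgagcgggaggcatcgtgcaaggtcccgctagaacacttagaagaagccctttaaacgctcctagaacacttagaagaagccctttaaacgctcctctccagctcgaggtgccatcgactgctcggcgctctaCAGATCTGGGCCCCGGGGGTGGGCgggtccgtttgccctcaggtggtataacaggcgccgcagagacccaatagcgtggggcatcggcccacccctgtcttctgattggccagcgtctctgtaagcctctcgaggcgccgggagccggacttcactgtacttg
Rpia start, chr6:70792126-70792425, minus strand: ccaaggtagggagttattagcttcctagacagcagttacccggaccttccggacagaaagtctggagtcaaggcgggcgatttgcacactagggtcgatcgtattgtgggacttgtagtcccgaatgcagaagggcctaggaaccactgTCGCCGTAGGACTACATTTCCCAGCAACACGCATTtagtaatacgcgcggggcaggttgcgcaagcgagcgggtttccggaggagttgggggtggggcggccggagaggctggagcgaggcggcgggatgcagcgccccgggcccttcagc

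Tkt (gene 21881, chromosome 14, 30549131 to 30574724, plus strand) encodes transketolase, which links the pathway to glycolysis. It had 6 series-wide peaks within 10 kb, a density of 1.32 peaks per 10 kb of window that was above that of 97.1% of all genes. The tallest was a narrow peak of 223 bp (30547268 to 30547490) with its summit 1754 bp upstream of the start in both replicates. It had a fold of 31.0 in replicate 1 and 18.2 in replicate 2 (24.6 ± 9.07, SD, n = 2), and the series-wide value exceeded 92.0% of all series-wide peaks. That ratio of 1.71 between replicates was the largest among the members' 27 peaks found in both; the order of this peak against the members' others is therefore less certain. The series-wide peak over the start (30547847 to 30549394) had 14-fold and 12.9-fold. Replicate 1 split it into a 14-fold peak that ended upstream of the start and a 9.50-fold peak that covered the start (30548599 to 30549394). A further 3 peaks lay inside the gene, with series-wide folds of 7.98 to 15.0, and 1 lay 7425 bp upstream with 9.50.

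Taldo1 (gene 21351, chromosome 7, 141392160 to 141402976, plus strand) encodes transaldolase, the partner of transketolase. Its strongest series-wide peak within 10 kb was the lowest of the 10 genes. Near its start, replicate 1 held a peak of 6.0-fold and replicate 2 a peak of 6.65-fold, both below 7.5, the lowest fold in the series-wide list. These peaks did not overlap and lay 50 bp apart. The series-wide peak within 10 kb had 7.5-fold and lay 6064 bp beyond the far end, overlapping the neighbouring gene Gatd1, which is named after its position was seen. Transaldolase and transketolase act on shared substrates, but of their genes only Tkt had a gene-end peak in the series-wide list.

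Idh1 (gene 15926, chromosome 1, 65158616 to 65186479, minus strand) encodes the NADP-linked isocitrate dehydrogenase of cytosol and peroxisomes. Its tallest peak had the highest series-wide fold of all 10 genes, 39.4, from replicate 2. The next, 35.5 at Nnt, comes from replicate 1 by the step of its value. In that replicate the Idh1 peak had 32.5-fold, so the order of these peaks is not settled. RefSeq lists 2 starts for it, 7337 bp apart. At the upstream start, which is also the end of the model, the peak (65185655 to 65186774) had 10-fold in replicate 1 and 12.4-fold in replicate 2 (11.2 ± 1.70, SD, n = 2). At the downstream start, a broad series-wide peak of 1911 bp (65177644 to 65179554) had 32.5-fold in replicate 1 and 39.4-fold in replicate 2 (36 ± 4.91, SD, n = 2). Replicate 1 resolved this region into peaks of 21.0-fold and 32.5-fold. The replicate summits of the taller signal lay 105 and 96 bp upstream of the downstream start, while the summit given in the series-wide list lay 808 bp downstream of it. The series-wide value there exceeded 96.5% of all series-wide peaks. In each replicate the fold at the downstream start was thus above that at the upstream start. The upstream start lies 206 bp from the listed start of Pikfyve, which encodes a lipid kinase and runs the other way, so the peak there spans both promoters. The remaining series-wide peak, of 14.5-fold, lay beyond the downstream start inside the gene (65176914 to 65177331).

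Both Idh1 starts are shown because signal differed between them, with capitals again from the summit of 1 replicate to that of the other.
Idh1 upstream start, chr1:65186430-65186729, minus strand: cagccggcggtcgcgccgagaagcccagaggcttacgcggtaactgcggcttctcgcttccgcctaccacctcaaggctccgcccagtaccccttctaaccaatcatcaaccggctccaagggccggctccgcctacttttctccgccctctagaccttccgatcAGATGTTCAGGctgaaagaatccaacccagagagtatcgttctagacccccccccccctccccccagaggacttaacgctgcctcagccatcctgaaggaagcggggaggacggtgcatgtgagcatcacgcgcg
Idh1 downstream start, chr1:65179093-65179392, minus strand: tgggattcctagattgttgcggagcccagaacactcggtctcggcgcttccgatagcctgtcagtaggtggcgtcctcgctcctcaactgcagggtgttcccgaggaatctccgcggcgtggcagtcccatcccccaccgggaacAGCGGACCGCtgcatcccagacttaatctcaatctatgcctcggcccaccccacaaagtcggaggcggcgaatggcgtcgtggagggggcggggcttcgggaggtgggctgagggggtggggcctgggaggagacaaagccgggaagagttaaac
Each of these stretches of 300 bp holds 23 CpG dinucleotides, with a GC content of 62% upstream and 63.7% downstream. The peaks extend beyond these stretches, and the part of CpG content in the difference in fold was not tested.

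Idh2 (gene 269951, chromosome 7, 80094845 to 80118608, minus strand) encodes the mitochondrial NADP-linked isocitrate dehydrogenase. It had 7 series-wide peaks within 10 kb, the most of the 10 genes, and its density of 1.60 per 10 kb was above that of 98.6% of all genes. The tallest pair lay outside the model on the upstream side. The peak from 80119201 to 80119816, 825 bp outside the model, had 22.0-fold in replicate 1 and 23.5-fold in replicate 2. The peak from 80121142 to 80121704, 2710 bp outside, had 23.5-fold and 23.9-fold (23.7 ± 0.308, SD, n = 2). These replicate values were close for both peaks. Idh2 was the only member with a gene-end peak when only the top 20% of series-wide peaks by fold were counted, where 5.66% of all genes had one. The start that RefSeq lists for Idh2 lies 3258 bp inside the model, and the peak covering it (80114954 to 80115558) was low, with 7.5-fold in replicate 1 and 8.87-fold in replicate 2. The gene-end peak of Idh2 is therefore distal to its listed start. The remaining 4 peaks lay inside the gene with series-wide folds of 7.54 to 14. The stretch around the listed start is given for comparison with Idh1, with the same use of capitals.
Idh2 start, chr7:80115301-80115600, minus strand: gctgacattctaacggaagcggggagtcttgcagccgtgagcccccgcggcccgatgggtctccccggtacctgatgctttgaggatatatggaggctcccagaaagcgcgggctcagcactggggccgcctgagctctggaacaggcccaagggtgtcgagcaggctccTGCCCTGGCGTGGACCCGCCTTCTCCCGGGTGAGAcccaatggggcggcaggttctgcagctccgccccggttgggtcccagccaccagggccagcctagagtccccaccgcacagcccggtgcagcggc

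**Figure D2:**
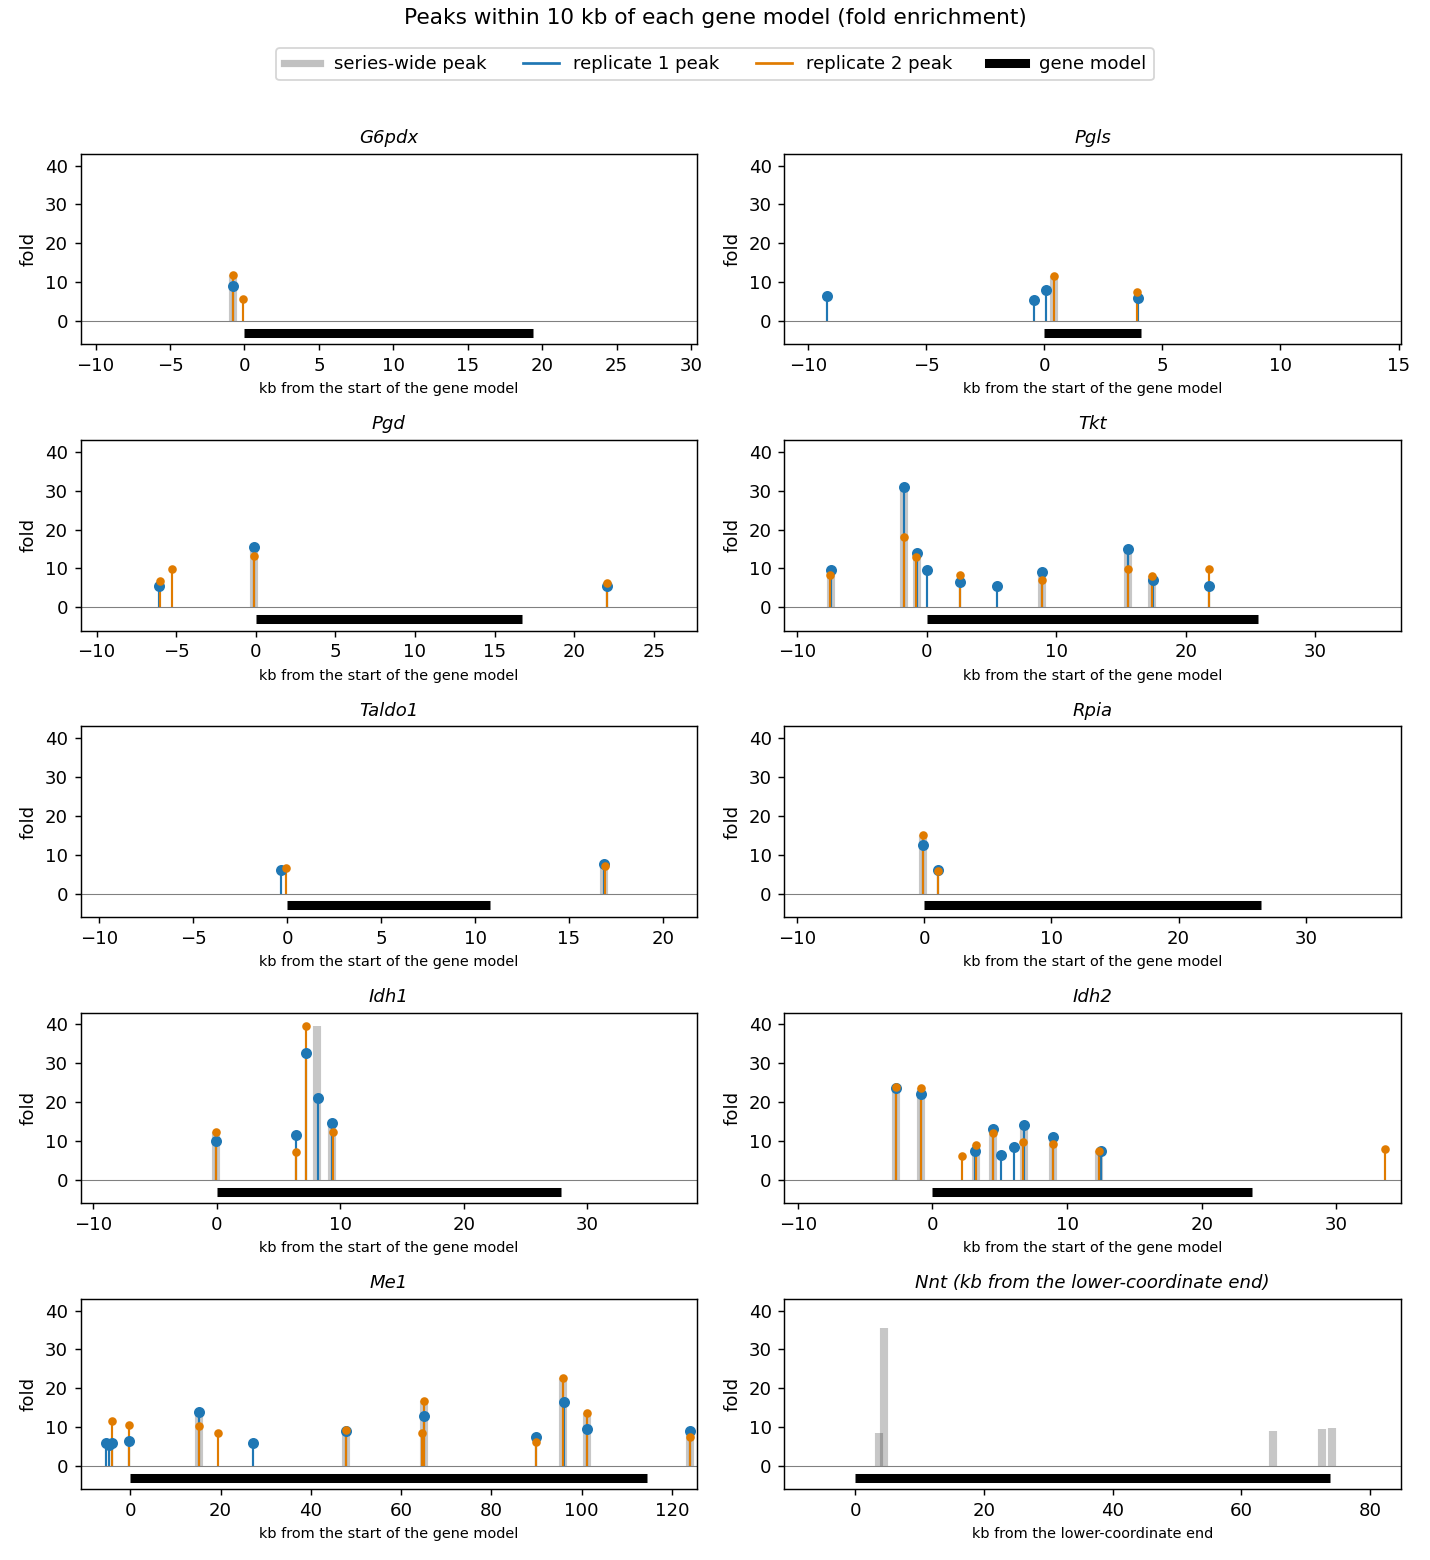
Peaks within 10 kb of each gene, drawn at their summits in kb from the start of the model (x axis; for Nnt from its lower-coordinate end) and with fold enrichment as height (y axis). Grey bars are series-wide peaks, coloured lines with dots are replicate peaks and black bars are gene models; the tallest signals of Idh1, Tkt, Idh2 and Me1 stand away from the start of the model, and Nnt has grey bars only.

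Me1 (gene 17436, chromosome 9, 86581363 to 86695914, minus strand) encodes cytosolic malic enzyme, which makes NADPH while turning malate into pyruvate. It is the longest of the 10 genes at 114.6 kb. It had no series-wide peak at a gene end. Both replicates did hold a peak just upstream of its start, with 6.50-fold in replicate 1 and 10.6-fold in replicate 2, and these also lay within 1 kb of the start of the long non-coding RNA gene A330041J22Rik. Such a pattern was not rare, since 11% of all genes likewise had a gene-end peak in both replicates but none in the series-wide list. Inside the gene there were 5 series-wide peaks. The tallest (86599744 to 86600109) had 16.5-fold in replicate 1 and 22.6-fold in replicate 2 (19.6 ± 4.32, SD, n = 2), and the next (86630418 to 86631016) had 13-fold and 16.8-fold (14.9 ± 2.72, SD, n = 2). The sixth peak, 9.0-fold, lay 9549 bp beyond the far end, 28 bp from a start of Pgm3 and 174 bp from a start of Rwdd2a, a pair of genes likewise named after the fact. With 0.446 peaks per 10 kb, Me1 ranked above 73.8% of genes, a lower rank than those of Tkt and Idh2, which had 6 and 7 peaks on much shorter models.

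Nnt (gene 18115, chromosome 13, 119335527 to 119409257) encodes the transhydrogenase of the inner mitochondrial membrane, which uses the proton gradient to pass hydride from NADH to NADP. The reference mouse strain is known to carry a deletion inside this gene, and the labels name no strain. Neither replicate list held a peak within 10 kb of Nnt. The last replicate peaks on chromosome 13 ended at 114344540 and 114363886, whereas the series-wide list held 52 further peaks up to 120321688. Absence from the replicate lists therefore says nothing about Nnt, and no replicate values or SD can be given. In the series-wide list Nnt had 5 peaks. The tallest (119339645 to 119340237) had 35.5-fold, above 94.9% of all series-wide peaks, and lay 4510 bp inside the lower-coordinate end. A pair of peaks at the higher-coordinate end had 9.50-fold and 9.75-fold. The strand of Nnt is not used here, so its start and far end are not told apart. By the step of the deposited values, 4 of the 5 folds, the 35.5 included, come from replicate 1 and the 9.75 from replicate 2.

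The strongest peak within 10 kb was at a gene end in 4 of the 8 genes that had a gene-end peak (G6pdx, Pgls, Pgd and Rpia). Among all genes with a gene-end peak the share was 57.4%. In Tkt, Idh1, Idh2 and Nnt, a taller peak stood elsewhere. In Idh2 the taller peak exceeded the gene-end peak in each replicate, but only slightly. The folds were 23.5 against 22.0 in replicate 1 and 23.9 against 23.5 in replicate 2. By count of peaks the genes differed as well: G6pdx, Pgls, Pgd, Rpia and Taldo1 had 1 series-wide peak each within 10 kb and Idh1 had 3, while Tkt, Idh2, Me1 and Nnt had 5 to 7 and together held 24 of the 32. The windows differ in length, however. Per 10 kb, Me1 with 0.446 peaks and Pgls with 0.415 were close, while Tkt with 1.32 and Idh2 with 1.60 stayed highest.

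The replicates were compared over the 27 of the members' 32 peaks that overlapped a peak of both replicate lists; the other 5 were those of Nnt. The fold was higher in replicate 1 at 13 peaks and higher in replicate 2 at 14. Over all series-wide peaks found in both lists, 45.4% were higher in replicate 1. The ratio of the higher to the lower fold had a median of 1.19 at the members' peaks and 1.18 at all peaks, and the summits of the members' peaks lay a median of 23 bp apart. Within 10 kb of the members there were 48 peaks in replicate 1 and 44 in replicate 2, of which 18 and 17 overlapped no series-wide peak. Their folds ran from 5.50 to 11.5, which overlaps the range of the series-wide list. Of the members' peaks, 8 of replicate 1 and 7 of replicate 2 had no counterpart in the other replicate. The matching shares over all replicate peaks are not given here, so whether the members differ from them cannot be told. Of the 12 starts listed for the members, 7 were covered by a peak of replicate 1 and 9 by a peak of replicate 2. The share of all listed starts so covered is not given here either, so these counts cannot be set against it. With 2 samples of a single group there is no contrast to test, and differences in fold between members that fall within these ratios are not distinguished. A gene-end peak was present in both replicates for 9 of the 10 members, all but Nnt, against 45.2% of all genes, or 46.2% of the genes that do not lie beyond the last replicate peak.

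**Figure D3:**
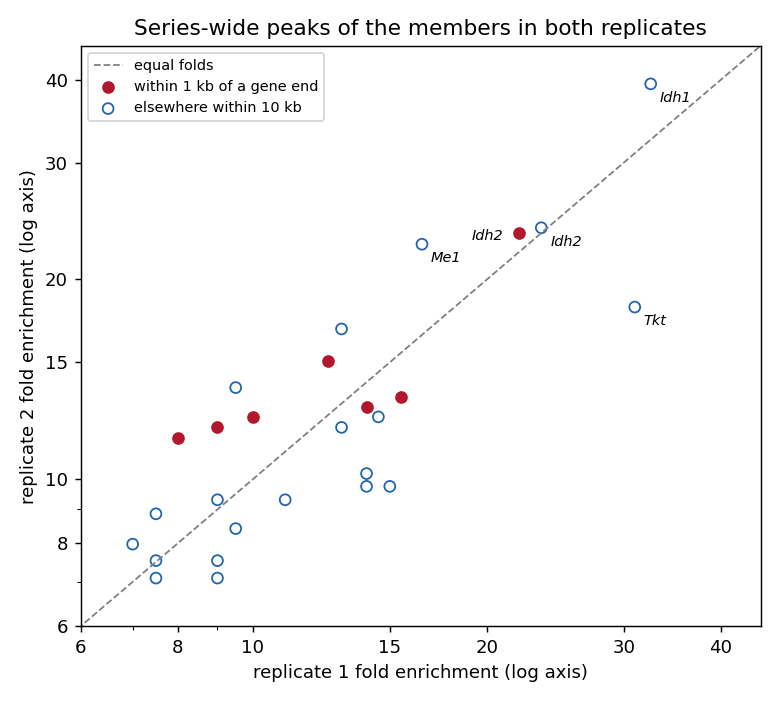
Fold enrichment in replicate 1 (x axis, log scale) against replicate 2 (y axis, log scale) for the members' 27 series-wide peaks found in both, with filled dots for peaks within 1 kb of a gene end and open dots for the rest. Most points lie close to the dashed line of equal folds; the upstream Tkt peak, at 31.0 and 18.2, lies farthest from it.

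The sequences around the starts were searched on both strands for short motifs. The core of the C/EBP-ATF response element, TGATGNAA, is the composite site at which ATF4 and C/EBP factors are known to pair. None of the 12 listed member starts held it, where 3.97% of all 32851 promoters in the table did. The cyclic AMP response element TGACGTCA and the E-box CACGTG were also found at 0 member starts, against 1.79% and 7.15% of all promoters. The core of the antioxidant response element, TGACNNNGC, the site of the stress regulator NRF2, was found at 3 member starts, those of G6pdx, Me1 and the inner start of Pgd, against 12.4% of all promoters. A match describes letters in the window and does not show a site, and the windows do not reach the distal peaks of Tkt, Idh2, Me1 and Nnt. The 3 stretches are shown because both G6pdx and Me1 lacked a series-wide peak over their own start; capitals mark the match, which in G6pdx reads on the opposite strand.
G6pdx, chrX:74428904-74428962, minus strand: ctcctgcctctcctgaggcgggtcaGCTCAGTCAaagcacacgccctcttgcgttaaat
Me1, chr9:86695887-86695945, minus strand: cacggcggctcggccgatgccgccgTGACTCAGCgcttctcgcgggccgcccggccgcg
Pgd inner start, chr4:149166046-149166104, minus strand: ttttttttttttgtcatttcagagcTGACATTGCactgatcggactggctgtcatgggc
None of these 3 stretches was overlapped by a series-wide peak, but the G6pdx match was covered by the 5.76-fold peak of replicate 2, and the upstream edge of the Me1 stretch by the weak peaks of both replicates.

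Other genes of NADPH metabolism were taken from lists chosen with earlier results of these data known, and are set beside the same 34.9% of all genes. Among 20 other producers and pentose phosphate genes, 12 had a series-wide gene-end peak (60%), with a median strongest fold of 14.4. The tallest were H6pd, which encodes the pentose phosphate dehydrogenase of the endoplasmic reticulum (26-fold in replicate 1 and 29.3-fold in replicate 2), and Tigar, which encodes a phosphatase that lowers glycolytic flux (25.5-fold and 25.7-fold). Nadk, which encodes the cytosolic NAD kinase, had 20.8-fold in replicate 2 but at most 7.5-fold in replicate 1, a spread that leaves its rank uncertain. Aldh1l2, of mitochondrial folate metabolism, had 17.5-fold and 18.2-fold. Aldh1l1 and Glud1 had no series-wide peak at a gene end. H6pd and Tigar stood above every gene-end peak of the 9 members with replicate values, in each replicate. The peak at the downstream start of Idh1, which is not an end of the model, was higher than both, with 32.5-fold and 39.4-fold. Inner starts of the listed genes are not given here.

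Of the 3 subunit genes of the NAD-linked isocitrate dehydrogenase, Idh3b had a series-wide gene-end peak, with 11.5-fold in replicate 1 and 10.6-fold in replicate 2. Idh3a and Idh3g had none in that list, though both replicate lists held a peak at each of the 3 genes. The peak at the end of the Idh2 model exceeded all 3 in each replicate, but the peak over the listed start of Idh2, with 7.5-fold and 8.87-fold, was below that of Idh3b in each.

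Of 13 genes listed as NADPH users, 3 had a series-wide gene-end peak (23.1%), with a median strongest fold of 11.5. That share was below the 34.9% of all genes, but in both replicate lists 8 of the 13 had a gene-end peak, a share above the 45.2% of all genes, so the order depended on the list used. The 3 were Txnrd2, Nqo1 and Srxn1. Txnrd2, which encodes mitochondrial thioredoxin reductase, had 12-fold in replicate 1 and 11.1-fold in replicate 2. Nqo1, a quinone reductase gene, had 11.5-fold and 9.31-fold. Srxn1, the sulfiredoxin gene, had 8.50-fold and 9.31-fold, and its enzyme does not itself use NADPH. Blvrb and Cbr1 had no series-wide gene-end peak. Both replicate lists held such a peak at Blvrb, with 10.5-fold in replicate 1 and 7.09-fold in replicate 2, while Cbr1 lies beyond the last replicate peak of its chromosome. The lists were not tested against each other.

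**Figure D4:**
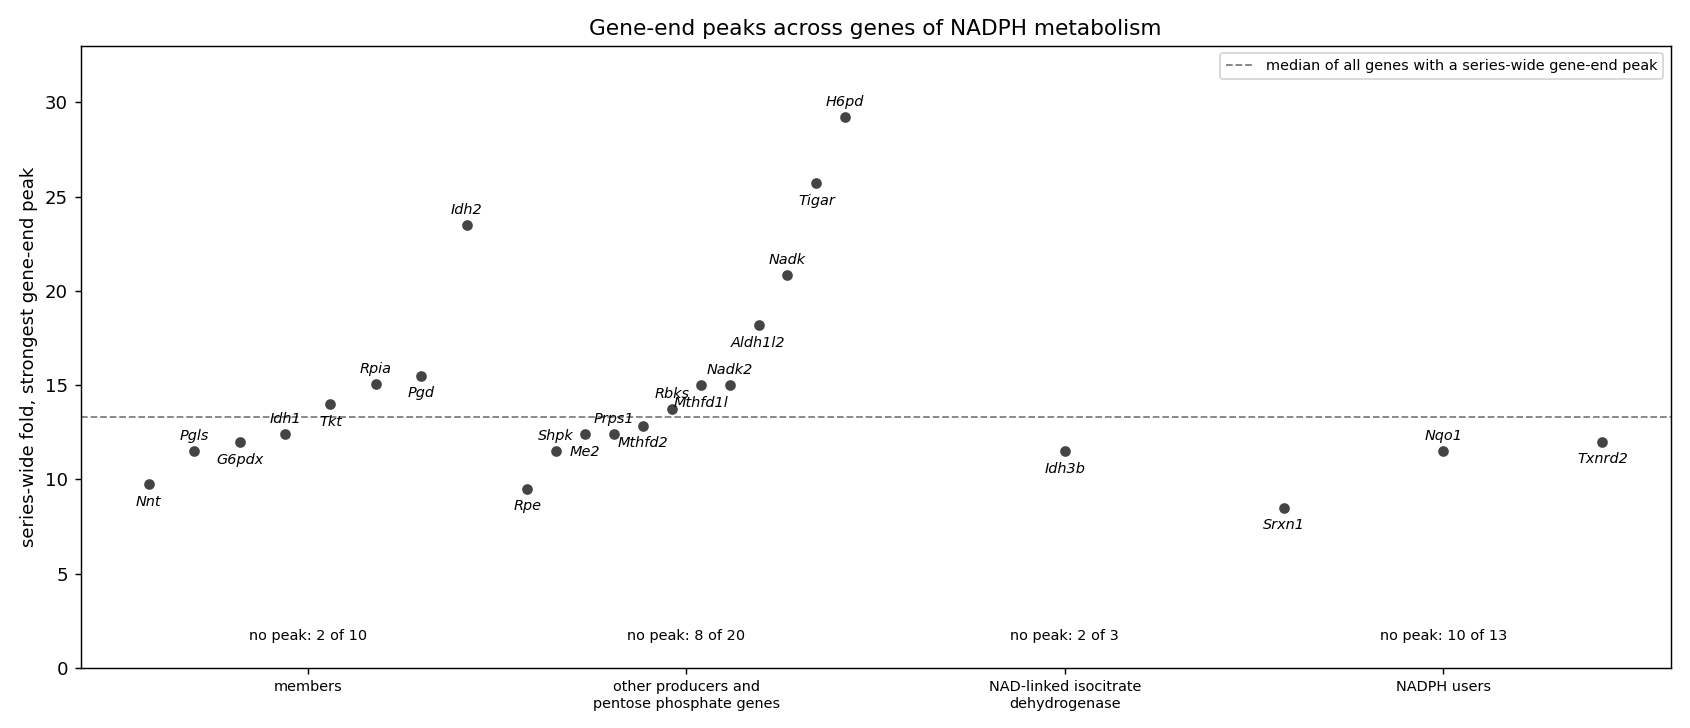
Series-wide fold of the strongest gene-end peak (y axis) for the 10 members and 3 lists of other NADPH genes (x axis), a dot per gene with a peak and the number without a peak printed below. The dashed line is the median of 13.3 over all genes with such a peak. H6pd at 29.3 and Tigar at 25.7 are above Idh2 at 23.5. All 3 genes with a peak on the list of NADPH users lie under the line. The peak at the downstream start of Idh1 is not at an end of the model and is not plotted.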

How the data were processed

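Peaks were deposited for both pull-down samples separately and once for the series. Per the submitters' processing notes the tools were Bowtie2, MACS2 and deepTools and the build mm10; their roles and versions are not given in the sources used here. The replicate lists hold, as deposited by the authors, a −log10 p-value or q-value per peak, which of the pair is not given in the sources used here. The series-wide list holds the authors' deposited fold enrichment, a ratio. Starts in the replicate lists count from 1 and those in the series-wide list from 0; all positions are printed counting from 1.

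Series-wide peaks of identical position and summit tied replicate values to folds (17420 of 17420 in replicate 1, 21047 of 21053 in replicate 2). The folds step evenly, by 0.5 in replicate 1 and 0.443 in replicate 2, and for 4 and 5 lowest values the steps were continued downwards. The replicate fold of a series-wide peak is that of its highest overlapping replicate peak. A peak counted where it overlapped a window by at least 1 bp. Genes are RefSeq models of GRCm38.p6; strand and starts come from the RefSeq promoter table, which holds 9 of the 10 members. Members and lists were chosen with earlier results of these data known. All members are named; of each other list, the 4 highest (or all, where fewer had a peak) and the first 2 without a peak. A gene of the NADPH user list is not reported here and was left out of its counts. No test was run, since a single group has files. The overlap code was tested on simulated peaks. Python 3.11.15, NumPy 2.4.6, pandas 2.3.3 and Matplotlib 3.10.9 were used.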

Additional observations from a re-analysis of the deposited data

How the results depend on the processing

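The count of 8 members with a series-wide gene-end peak was 7 to 9 with a 5 kb window, with starts alone, with the midpoint or the summit in the window, in each replicate list alone and, chosen after seeing the data, with peaks found in both replicates only. It was 4 with the 50% of peaks of highest fold (Pgd, Rpia, Idh2 and Tkt, against 16.7% of all genes) and 1 with the 20% of highest fold. With the upper 50% the members' 32 peaks within 10 kb became 15, and the 16 of 36 other NADPH genes became 7. In a single replicate list these other genes numbered 26 to 28. For the 7 members with a gene-end peak in the series-wide list and in both replicates, the median strongest gene-end fold was 14 in the series-wide list and 12.5 to 12.9 in a single replicate, as a series-wide fold is the higher of a pair. Taldo1 and Me1, with weak replicate peaks only, are not in these medians. The other alternatives stayed within 1.5 times. No paired analysis was possible because the input samples, which share replicate numbers with the pull-down samples, have no values here. Depth is unknown, so whether the weak peaks at Taldo1 and Me1 would enter the series-wide list with more reads was not tested.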
